A study of Rattus norvegicus with 40 samples.

Results

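Mitochondrial DNA encodes a small set of respiratory chain proteins, and 6 of its genes are described here in the rat adrenal gland: mt-Co1, mt-Co2 and mt-Co3, which encode the catalytic core of complex IV (cytochrome c oxidase), mt-Cytb, which encodes cytochrome b of complex III, and mt-Atp6 and mt-Atp8, which encode membrane subunits of complex V (ATP synthase). They were chosen by Ensembl identifier (ENSRNOG00000034234, ENSRNOG00000030371, ENSRNOG00000030700, ENSRNOG00000031766, ENSRNOG00000031979 and ENSRNOG00000033299, in the order above; the files hold identifiers without names), not by their values, and make up 6 of the 32545 genes listed for each library. All 6 were found in every library and passed the filter on low values. Adrenal RNA came from adult Sprague Dawley rats, an outbred laboratory stock. The animals had received a mixture of organophosphate esters, which are flame retardants and plasticizers, at doses named 30x, 1000x and 30000x, or served as controls. Each of the 8 groups (females at 30x, 1000x and 30000x and female controls, and the same for males) held 5 libraries, for a total of 40. The labels speak of biological replicates and name no animals. The labels give no amount behind a dose multiple, no route or duration of exposure and no sequencing batch. Since no identifier matched the gene name table used here, markers of adrenal cortex or medulla could not be read, and the tissue is given as labelled.

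Mitochondrial genes are transcribed as long precursor RNAs from which the single messengers are cut, so their levels share a common origin before differences in RNA stability set in. The proteins are made inside the mitochondrion and join nuclear-encoded subunits, which come from separate transcription in the nucleus. Complex III passes electrons to cytochrome c, complex IV passes them on to oxygen, and complex V uses the resulting proton gradient to make ATP. In the adrenal gland, mitochondria also house the enzymes that open and close steroid hormone synthesis, and these draw on electrons and an intact membrane potential.

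The deposited values are FPKM (fragments per kilobase of gene, scaled for depth), which compare levels between genes per length. Recovered reads lay between 13527205 and 23838651 per library, with a median of 17528215. The FPKM had been scaled by size factors and not by library total, so that their sum differed between libraries, from 499471 to 1052740. Each level is therefore also given as a percentage of the library's FPKM sum. This second scale is not independent of the 6 genes, since they make up a sizeable part of that sum. Female 30000x replicate 5 was unlike the other libraries: it had 14437 genes with reads and 11905 genes at 1 FPKM or more, the lowest of all 40 libraries, and a size factor of 0.579. The limma comparisons on the FPKM scale that include the female 30000x group are also given without this library, as counts or ranges. No share of all genes is given beside the counts from those fits. The correlations within females are given both ways too. Results of voom and of the shares of the FPKM sum are given only with it.

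On the FPKM scale, 5 of the 6 genes were among the 6 most abundant genes of the adrenal gland by mean level. mt-Co1 averaged 50915 FPKM over the 40 libraries and mt-Atp6 averaged 43313 FPKM, which placed them at ranks 1 and 2 of all genes. mt-Co3 averaged 32666 FPKM, mt-Co2 29867 FPKM and mt-Cytb 21069 FPKM. mt-Atp8 averaged 695 FPKM, at rank 64, although it shares a messenger with mt-Atp6. The reading frames of these genes overlap, the labels give neither the strand setting nor the handling of reads that span both genes, and mt-Atp8 is short (204 bp against 681 bp for mt-Atp6, as recovered from the values). Its level relative to mt-Atp6 is therefore uncertain. Nuclear copies of mitochondrial DNA can also share reads with all 6 genes.

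The order of the levels was nearly fixed. mt-Co1 was above mt-Atp6, then mt-Co3, mt-Co2, mt-Cytb and mt-Atp8 in 33 of 40 libraries. The exceptions were all female: mt-Co2 exceeded mt-Co3 in 5 of 20 female and 0 of 20 male libraries, and mt-Atp6 exceeded mt-Co1 in 2 of 20 female and 0 of 20 male libraries. mt-Cytb stood below mt-Co2 and above mt-Atp8 in 40 of 40 libraries. Read numbers ranged from 713030 to 2164408 per library for mt-Co1 and from 1566 to 4510 for mt-Atp8, so that counting error was small beside the spread between libraries.

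Together the 6 genes held a larger part of the library in females than in males. Their summed share of the FPKM sum was 24.4% to 39.3% in the 20 female libraries, with a median of 29.9%, against 17.9% to 25.04% in the 20 male libraries, with a median of 21.7%. Only female control replicate 3 lay within the male range, and within each dose group every female library lay above every male library. In the female series the summed share was 27.97 ± 3.09% for controls, 32.8 ± 3.78% for 30x, 29.8 ± 2.20% for 1000x and 32.2 ± 4.70% for 30000x (SD, n = 5 each). In the male series it was 22.3 ± 1.47% for controls, 22.5 ± 2.10% for 30x, 21.1 ± 2.27% for 1000x and 21.2 ± 2.64% for 30000x (SD, n = 5 each). The mean share was 1.25-fold higher in female than in male controls, and 1.46-fold, 1.41-fold and 1.52-fold higher in females at 30x, 1000x and 30000x. Of all recovered reads, the 6 genes held 21.1 ± 3.63% in the 20 female libraries, against 13.7 ± 1.64% in the 20 male libraries (SD). These sums are given without a test. In whole glands, a different number of cells of a type and a different amount of RNA per cell cannot be told apart.

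**Figure D1:**
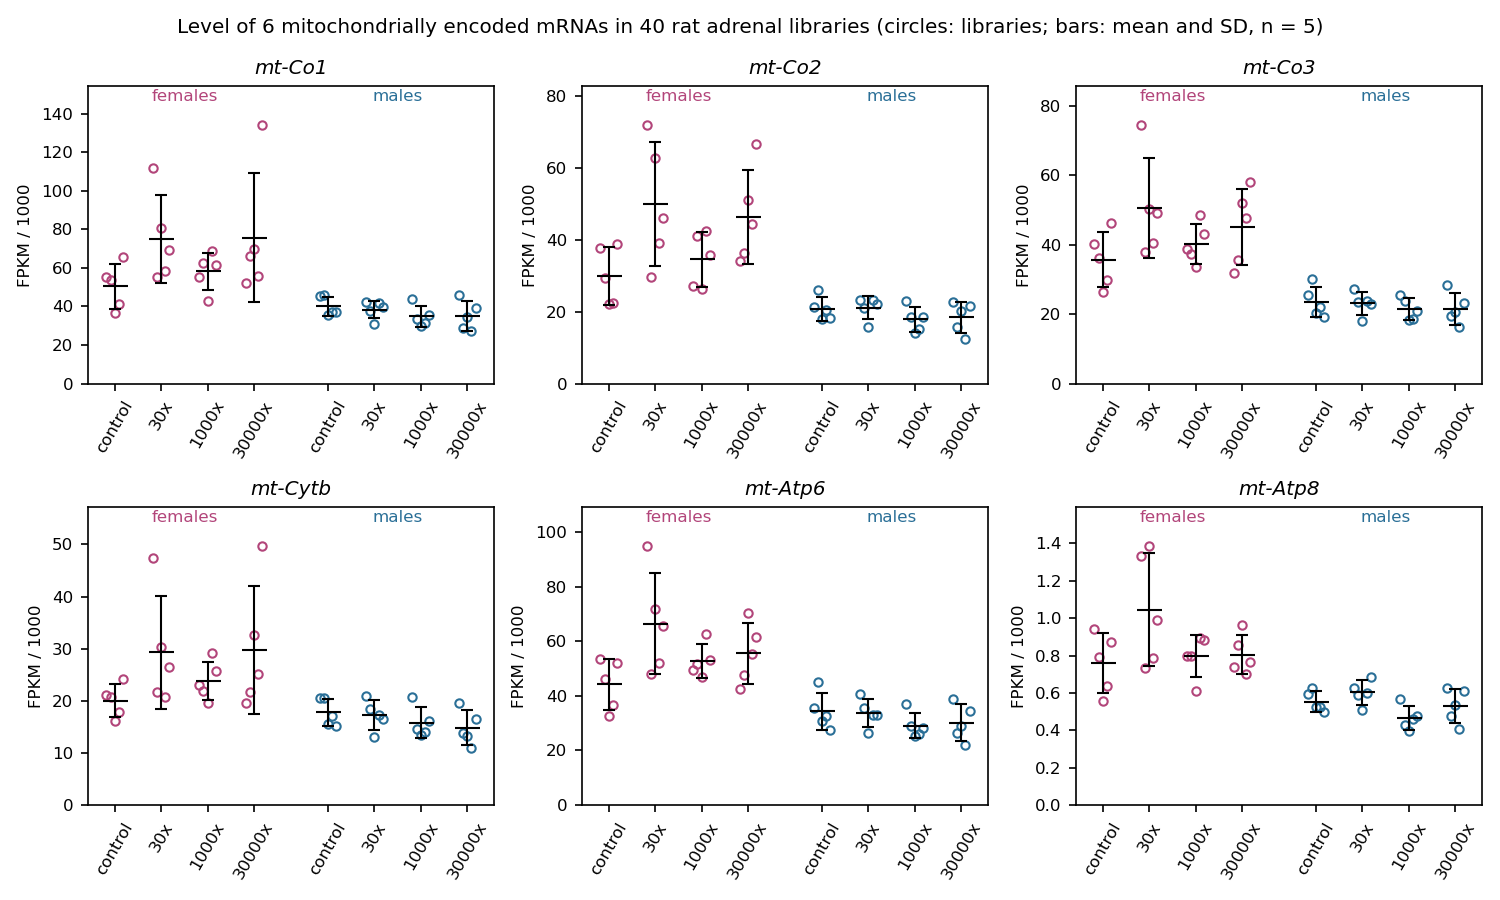
FPKM of each gene (linear axis from 0, in units of 1000 FPKM) in every library, by sex and dose, with circles for libraries and black bars for the mean and SD of 5 libraries. Female values lie higher and spread more widely than male values, up to 134159 FPKM for mt-Co1 in a 30000x library, and the dosed groups overlap the controls of their sex for all 6 genes.

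The sexes were compared at each dose and over the 4 dose groups with limma on log2(FPKM + 1). Each p-value sets a difference against 1 spread per gene, estimated from the 40 libraries of all 8 groups. The groups varied unequally: mt-Co1 had an SD of 4533 FPKM in males at 30x and 33513 FPKM in females at 30000x. Over the 4 dose groups, 6 of 6 genes were called higher in females at an adjusted p under 0.05, against 13.9% of all genes tested, and voom on the recovered reads also called 6 of 6, against 13.6%. Their log2 differences, female minus male, had a median of 0.76, where the median of all genes tested was 0.00. Scaling to the FPKM sum lowered the median of all genes to -0.28 and that of the 6 genes to 0.44, and 6 of 6 were still called, against 2.26% of all genes. Without female 30000x replicate 5, 6 of 6 were called on the FPKM scale, with log2 differences from 0.56 to 0.95. The share of all genes called in that fit is not given. On the scale of the FPKM sum the calls over all genes shifted to 315 higher and 8161 lower, in place of 1930 higher and 2173 lower. After quantile normalization, which gives each gene the average value of its rank, the differences of mt-Co1, mt-Co3 and mt-Cytb over the 4 groups were -0.02, -0.05 and -0.06, and 1 of 6 genes was called, against 15.9% of all genes. By FPKM, mt-Co1 held rank 1 in 38 of 40 libraries, whereas mt-Atp8 lay between ranks 31 and 129. The part of rank in the change under that method was not tested.

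Of the core subunits of complex IV, mt-Co2 and mt-Co3 had the widest differences of the 6 genes over the 4 dose groups, while mt-Co1 differed about as much as mt-Atp6 (log2 difference 0.75 and 0.76). mt-Co1, the subunit that binds oxygen at the heme-copper centre, had 55216, 53785, 36393, 41308 and 65470.5 FPKM in female controls, against 45343, 45688, 35348, 37168 and 36875 FPKM in male controls. At 30x it had 111540.0, 55134, 80454, 58172 and 69055 FPKM in females, against 42022, 37422, 30901, 41681 and 39472 FPKM in males. Female control replicates 3 and 4 thus lay within the male control range, whereas at 30x the lowest female library exceeded the highest male one. At 1000x, mt-Co1 had 55218, 62579, 42835, 68649 and 61377 FPKM in females, against 43593, 33649.6, 30033, 31250.1 and 35747 FPKM in males. At 30000x it had 52224, 66328, 69587, 55733 and 134159 FPKM in females, against 45810.3, 28638, 34616, 27203 and 38927 FPKM in males. Only female replicate 3 fell below a male library at 1000x, and the groups did not overlap at 30000x, where female replicate 5 stood far above the other 9 libraries. The mean over the 4 dose groups was 1.69-fold higher in females (log2 difference 0.75 ± 0.12 SE, limma adjusted p = 9.1e-06), and 0.43 on the log2 scale as a share of the FPKM sum (limma adjusted p = 1.1e-06).

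mt-Co2 encodes the subunit that accepts electrons from cytochrome c. It had 37608, 29248, 22000.5, 22338 and 38751 FPKM in female controls, against 21248, 25959, 17913, 20338 and 18309.6 FPKM in male controls. At 30x it had 71972, 29641, 62746, 38992 and 46127 FPKM in females, against 23246, 21037, 15652, 23375 and 22208 FPKM in males. The control groups overlapped through male replicate 2, and the 30x groups did not overlap. At 1000x, mt-Co2 had 27026, 40971, 26366, 42459 and 35750.2 FPKM in females, against 23018, 18439.6, 13978, 15249.5 and 18417 FPKM in males. At 30000x it had 33952, 36222, 51003, 44240.1 and 66557 FPKM in females, against 22672, 15727, 20150.2, 12318 and 21468 FPKM in males. Every female library exceeded every male library at both of these doses. mt-Co2 had the largest difference of the 6 genes over the 4 dose groups, 1.98-fold higher in females (log2 difference 0.99 ± 0.12 SE, limma adjusted p = 1.3e-07), and 0.67 on the log2 scale as a share of the FPKM sum.

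mt-Co3 encodes the core subunit without a redox centre. It had 40188, 36213, 26335, 29705 and 46325 FPKM in female controls, against 25589, 30047, 20400.0, 22097 and 19307 FPKM in male controls. At 30x it had 74580.2, 38052, 50271, 40622 and 49261 FPKM in females, against 27309, 23456, 18095, 23715 and 22799 FPKM in males. As for mt-Co2, male control replicate 2 lay among the female controls, and the 30x groups were apart. At 1000x, mt-Co3 had 38754, 37364, 33574, 48624 and 43102 FPKM in females, against 25584, 23899, 18265, 18542 and 20939 FPKM in males. At 30000x it had 31989, 35669.6, 52101, 47788 and 58039.7 FPKM in females, against 28517, 19332, 20551, 16317 and 23313 FPKM in males. The groups did not overlap at either dose. Over the 4 dose groups mt-Co3 was 1.89-fold higher in females (log2 difference 0.91 ± 0.10 SE), with the lowest adjusted p of the 6 genes (limma, 4.8e-08).

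mt-Cytb, which carries both heme b groups of complex III, differed least between the sexes over the 4 dose groups, in controls, at 30x and at 1000x, whereas mt-Atp8 differed least at 30000x. It had 21156, 20698, 16124, 17822 and 24249 FPKM in female controls, against 20486, 20595, 15485, 17063 and 15243 FPKM in male controls. At 30x it had 47475, 21677, 30273, 20628 and 26538 FPKM in females, against 20871, 18462, 13016, 17192 and 16599 FPKM in males. The sexes overlapped in both groups, although at 30x only female replicate 4 fell below male replicate 1. At 1000x, mt-Cytb had 23102, 21897, 19627, 29120.1 and 25643 FPKM in females, against 20724, 14642, 13420.5, 13914 and 16186 FPKM in males. At 30000x it had 19575, 21656, 32687, 25136 and 49628 FPKM in females, against 19640.0, 13862, 13319, 10894 and 16452 FPKM in males. A single female library lay below the highest male library at each of these doses. The mean over the 4 dose groups was 1.52-fold higher in females (log2 difference 0.61 ± 0.11 SE, limma adjusted p = 1.0e-04).

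Of the complex V genes, mt-Atp6 encodes the subunit through which protons cross the membrane. It had 53622, 46345, 32480.5, 36599.8 and 52081 FPKM in female controls, against 35606, 45113, 30849, 32634 and 27471 FPKM in male controls. At 30x it had 94833, 48098, 71854, 52210.5 and 65673 FPKM in females, against 40759, 35491, 26264, 33139 and 33148 FPKM in males. Male control replicate 2 exceeded female control replicates 3 and 4, and the 30x groups did not overlap. At 1000x, mt-Atp6 had 49515, 51588, 46845, 62812 and 53086 FPKM in females, against 37048, 28786, 25382, 25918 and 28326 FPKM in males. At 30000x it had 42508, 47765, 70336, 55495 and 61690.4 FPKM in females, against 39004, 26449.6, 28949, 22158 and 34599.6 FPKM in males. The sexes were apart at both doses. Over the 4 dose groups mt-Atp6 was 1.70-fold higher in females (log2 difference 0.76 ± 0.10 SE, limma adjusted p = 1.2e-06).

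mt-Atp8, a small accessory subunit of the membrane part of ATP synthase, had 941, 789.6, 559, 638 and 871 FPKM in female controls, against 594, 627, 527, 522 and 496 FPKM in male controls. At 30x it had 1332, 733, 1384, 786 and 993 FPKM in females, against 625, 589, 509, 602 and 687 FPKM in males. Female control replicate 3 was the only female library of these groups inside the male range of its dose. At 1000x, mt-Atp8 had 799, 797, 611, 895 and 882 FPKM in females, against 569, 426, 395, 463 and 476 FPKM in males. At 30000x it had 738, 858, 962, 701 and 764 FPKM in females, against 624, 476, 533, 408 and 611 FPKM in males. Female values again lay above all male values at both doses, and female 30000x replicate 5, the highest of its group for the complex III and IV genes, was in the middle of its group here. Over the 4 dose groups mt-Atp8 was 1.56-fold higher in females (log2 difference 0.64 ± 0.08 SE, limma adjusted p = 2.1e-07).

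Within single doses the number of calls differed. In controls, limma called 0 of 6 genes between the sexes, against 1.98% of all genes called higher in females. At an unadjusted p under 0.05 there were 3 of 6, against 19.8% of all genes, and voom called 1 of 6, against 2.33% of all genes. The log2 differences in controls ran from 0.17 for mt-Cytb (95% interval -0.28 to 0.62) to 0.60 for mt-Co3 (0.18 to 1.01, limma adjusted p = 0.083). As a share of the FPKM sum, mt-Co3 and mt-Atp8 were called in controls (limma adjusted p = 0.0029 and 0.021), against 0.883% of all genes called higher. At 30x, 5 of 6 genes were called higher in females, against 1.85% of all genes, and mt-Cytb was not (log2 difference 0.71, limma adjusted p = 0.061). At 1000x, mt-Co2, mt-Co3, mt-Atp6 and mt-Atp8 were called, 4 of 6 against 0.682% of all genes. At 30000x each of the 6 was called, against 2.67% of all genes, with log2 differences from 0.61 for mt-Atp8 to 1.32 for mt-Co2. Without female 30000x replicate 5 the range there was 0.62 to 1.18, and 6 of 6 were called, with no share of all genes given for that fit. With voom, 6 of 6 genes were called at 30x, 4 with 1000x and 6 with 30000x, against 1.54%, 0.56% and 1.92% of all genes. As a share of the FPKM sum, 5 of 6 were called at each of the doses 30x, 1000x and 30000x, against 0.574%, 0.495% and 0.596% of all genes called higher. mt-Cytb was the exception at 30x and 1000x (limma adjusted p = 0.099 and 0.12), and mt-Atp8 was the exception at 30000x (log2 difference 0.16, limma adjusted p = 0.19).

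Counted by overlap on the FPKM scale, every female library exceeded every male library for 0 of 6 genes in controls, 5 genes at 30x, 4 genes at 1000x and, with 30000x, 5 genes. The share of all genes with that pattern was 2.64%, 2.79%, 2.42% and 2.23% at these doses in the same order. As a share of the FPKM sum, the pattern held for 3 of 6 genes in controls (mt-Co2, mt-Co3 and mt-Atp8). On that scale it held for 4 of 6 genes at each of 30x, 1000x and 30000x. Among all 13926 genes tested it then held for 176 in controls and for 42, 51 and 32 at the rising doses. That a difference was called at a dose and not in controls does not show that the sexes differed more at that dose, which the interaction test below addresses. The calls within a dose depended on the settings. In a fit of the 10 compared libraries alone, limma called 1 of 6 genes at 1000x, against 0.634% of all genes, and 0 of 6 at both 30x and 30000x, against 1.25% and 0.274%. At an unadjusted p under 0.05 these fits had 6 of 6 genes at each dose, against 22.3%, 20.1% and 18.5% of all genes from the low to the high dose. Without the filter on low values, limma called 1 of 6 at each dose, against 0.725%, 0.291% and 0.959% of all genes.

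**Figure D2:**
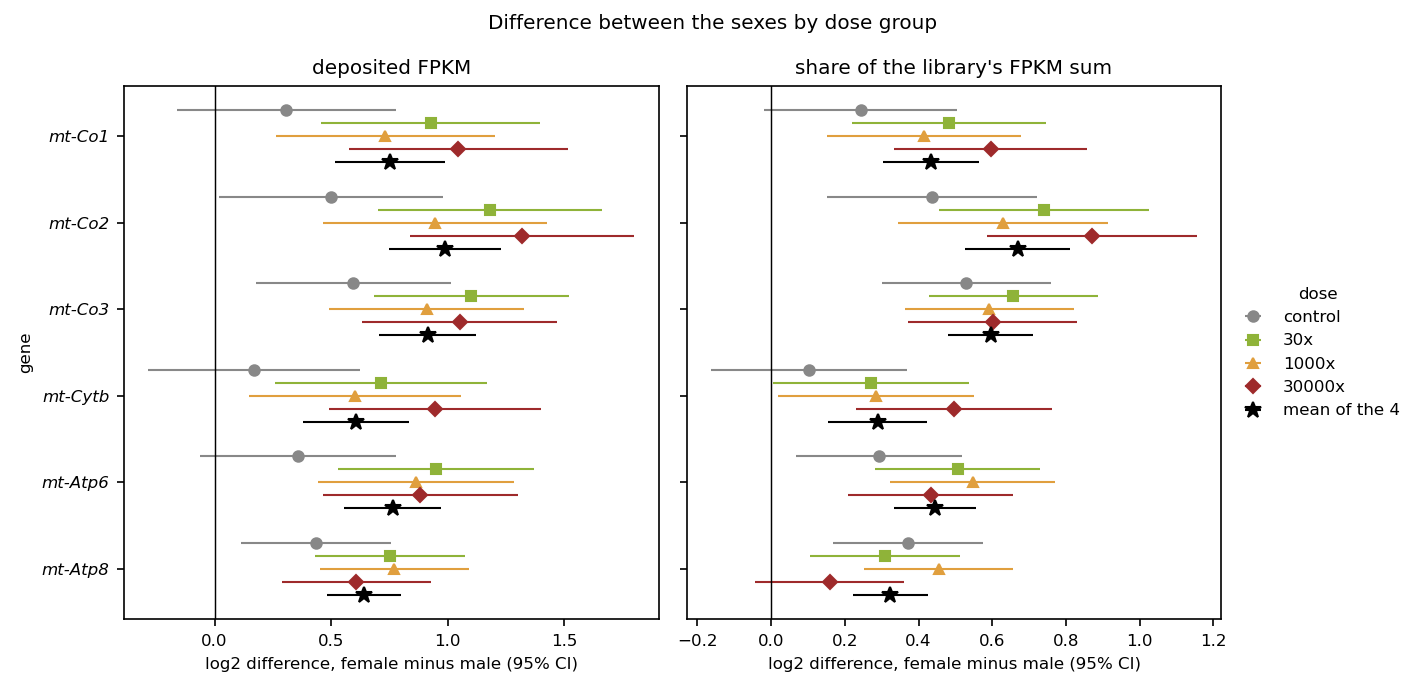
Log2 difference, female minus male, of each gene at each dose and as the mean of the 4 dose groups, on the deposited FPKM scale and as a share of the library's FPKM sum, with 95% confidence intervals from limma. All points lie above 0 on both scales, from 0.17 to 1.32 on the FPKM scale, whereas quantile normalization (not drawn) gave -0.02, -0.05 and -0.06 for mt-Co1, mt-Co3 and mt-Cytb over the 4 groups.

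Each dose was next compared with the controls of its sex, which is the comparison the study's design names. The comparisons of 1 sex share the same 5 control libraries. In females at 30x, limma called 0 of 6 genes, as it called 0% of all genes tested, and 3 of 6 (mt-Co2, mt-Atp6 and mt-Atp8) had an unadjusted p under 0.05, against 7.95% of all genes. voom on the recovered reads also called 0 of 6, against 0% of all genes, with 6 of 6 at an unadjusted p under 0.05, against 8.43%. The log2 changes ran from 0.44 (mt-Atp8) to 0.70 (mt-Co2), with a median of 0.52 beside -0.01 for all genes. Without 30x replicate 1 they were 0.40 (mt-Co1), 0.55 (mt-Co2), 0.34 (mt-Co3), 0.31 (mt-Cytb) and 0.44 (mt-Atp6), the lowest with 1 library left out. The lowest for mt-Atp8 was 0.32, without 30x replicate 3. With other libraries left out, the highest changes were 0.55 (mt-Atp8) to 0.87 (mt-Co2). For mt-Co2 the change of 0.70 ± 0.29 SE had a 95% interval of 0.09 to 1.32 (limma adjusted p = 0.61). The group means were 49896 ± 17291 FPKM at 30x and 29989 ± 8027 FPKM in controls (SD, n = 5 each), and the groups overlapped because 30x replicate 2, at 29641 FPKM, lay below 2 control libraries.

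In females at 1000x, 0 of 6 genes were called by limma or voom, against 0% of all genes, and 0 of 6 had an unadjusted p under 0.05 by either, against 1.67% and 1.74%. The log2 changes were small, from 0.08 (mt-Atp8) to 0.27 (mt-Atp6), and the interval for mt-Co1 was -0.41 to 0.85. At 30000x, 0 of 6 were called by limma or voom, again against 0% of all genes, and 1 of 6 had an unadjusted limma p under 0.05, against 9.88% of all genes, where voom had 3 of 6, against 9.34%. That gene was mt-Co2, with a log2 change of 0.63 ± 0.29 SE (limma adjusted p = 0.50). Without female 30000x replicate 5 its change was 0.49 ± 0.31 SE, and 0 of 6 had an unadjusted p under 0.05 by limma. The value for mt-Co1 was 0.52 ± 0.30 SE on the log2 scale, and 0.30 ± 0.30 SE without that library. mt-Cytb, at 0.50, was at 0.29 without it, and mt-Atp8 had the smallest value, 0.10, and 0.12 without it. The female values did not follow the order of the doses, since the 1000x mean lay below the 30x and 30000x means for each of the 6 genes. A linear trend over dose rank gave -0.01 to 0.14 per step on the log2 scale. limma called 0 of 6 genes for it, against 0% of all genes, and 0 of 6 had an unadjusted p under 0.05. For the trends of both sexes, the share of all genes at the unadjusted threshold is not given. Without female 30000x replicate 5 the trend was 0.0023 to 0.098 per step, and that of mt-Co1 was 0.059 in place of 0.12.

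In males, limma called 0 of 6 genes at any dose, against 0.00763% of all genes in each comparison. voom also called 0 of 6, against 0.00763% of all genes at 30x and 1000x and 0% at 30000x. At an unadjusted p under 0.05 limma had 0 of 6 at each dose, and voom had 1 of 6, at 1000x. The share of all genes at that unadjusted threshold is not given for males, so these counts are not set against a background. At 30x the log2 changes lay between -0.07 (mt-Co1) and 0.12 (mt-Atp8). At 1000x they lay between -0.25 (mt-Atp8) and -0.13 (mt-Co3). mt-Atp8 averaged 466 ± 66.002 FPKM at 1000x and 553 ± 54.9 FPKM in controls (SD, n = 5 each), with a 95% interval of the log2 change from -0.51 to 0.00012 (limma adjusted p = 0.69). At 30000x the changes lay between -0.28 (mt-Cytb) and -0.07 (mt-Atp8). The male intervals were narrower than the female ones, and for mt-Co1 at 30000x they ran from -0.59 to 0.16. The trend over dose rank was -0.10 to -0.05 per step, with 0 of 6 genes called by limma, 0 of 6 at an unadjusted p under 0.05, and 0.00763% of all genes called.

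For 0 of 6 genes did a dosed group lie wholly above or below the controls of its sex, in any of the 6 comparisons. Among all genes, 0.761%, 0.323% and 1.03% showed such a gap in females and 1.44%, 1.4% and 0.675% in males, from the low to the high dose. As a share of the FPKM sum, the female changes shrank to a median of 0.19 for 30x, 0.08 for 1000x and 0.15 for 30000x on the log2 scale. The median of all genes on that scale was -0.30, -0.11 and -0.25, and limma called 0 of 6 in each, against 0% of all genes. The male medians on that scale were 0.02, -0.10 and -0.07, beside 0.04, 0.10 and 0.10 for all genes, also with 0 of 6 called, against 0% of all genes at 30x and 1000x and 0.00763% at 30000x. mt-Atp8 had a female change below 0 there at 1000x and 30000x, -0.05 and -0.17.

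**Figure D3:**
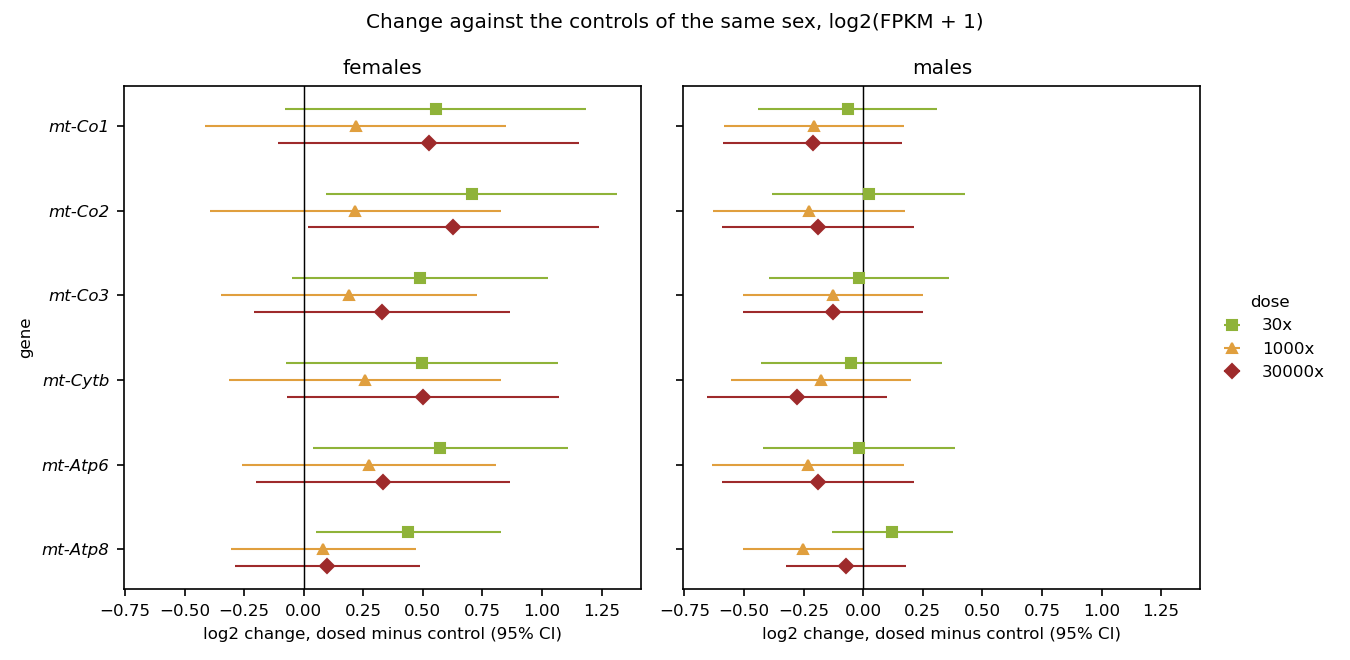
Log2 change of each gene at 30x, 1000x and 30000x against the controls of the same sex, on the FPKM scale, with 95% confidence intervals from limma. Female changes lie between 0.08 and 0.70 and male changes between -0.28 and 0.12, and 0 of 6 genes passed the threshold in any comparison; scaling to the FPKM sum placed mt-Atp8 below 0 in females at 1000x and 30000x.

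An interaction term in the fit of all 40 libraries asked whether females and males responded differently to a dose. The female change minus the male change was positive for 6 of 6 genes at each dose, from 0.32 to 0.68 at 30x, from 0.32 to 0.51 at 1000x and, on the same log2 scale, from 0.17 to 0.82 at 30000x, although it was negative for mt-Atp8 at 30x and 30000x after scaling to the FPKM sum (-0.06 and -0.21) and for some genes after quantile normalization. limma called 0 of 6 genes at each dose, against 0% of all genes in each case. At an unadjusted p under 0.05 there was 1 gene at 30x (mt-Co2), 0 genes at 1000x and 3 genes for 30000x (mt-Co1, mt-Co2 and mt-Cytb), against 13.1%, 4.67% and 12.8% of all genes. voom also called 0 of 6 at each dose, against 0% of all genes. The largest was mt-Co2 at 30000x, 0.82 ± 0.34 SE (95% interval 0.14 to 1.499, limma adjusted p = 0.34), and it was 0.68 ± 0.34 SE without female 30000x replicate 5. mt-Co1 was at 0.74 ± 0.33 SE, and at 0.51 ± 0.30 SE without that library, and mt-Cytb was at 0.78 ± 0.32 SE, and at 0.57 ± 0.30 SE without it. Without that library 0 of 6 genes had an unadjusted limma p under 0.05 at 30000x. A difference in response between the sexes was thus not detected at this number of libraries, which does not show that the responses were alike.

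The 6 genes moved together from library to library. After each group mean was removed, all 15 pairs were positively correlated over the 40 libraries, with a Pearson r from 0.69 (mt-Cytb and mt-Atp8) to 0.95 (mt-Co3 and mt-Atp6) and a median of 0.87. Spearman's rho ran from 0.74 to 0.96. Each of the 15 pairs passed a permutation test within groups (100000 permutations, adjusted p at most 2e-05 over the 15 pairs for both measures, where 1e-05 is the smallest p that these can give). Within females the r ran from 0.62 to 0.95, and within males from 0.82 to 0.97, with 15 of 15 pairs past the threshold in each sex. Without female 30000x replicate 5 the range within females was 0.78 to 0.96. With the 2 libraries farthest from the median left out for each pair, the range was 0.72 to 0.94. The points share library scaling, since a common factor scales all genes of a library. On this scale the 8745 other genes that averaged 5 FPKM or more had a median r of 0.07 with the mean deviation of the 6. As shares of the FPKM sum, which includes the 6 genes, the range of r was 0.07 to 0.84, and 11 of 15 pairs passed by Pearson and 13 by Spearman. The 4 pairs that did not pass by Pearson were mt-Co1 with mt-Atp6 (r = 0.37, adjusted permutation p = 0.056), and mt-Atp8 with mt-Co1, mt-Co3 and mt-Cytb (r = 0.15, 0.20 and 0.07). As ratios to the FPKM sum of all other genes, 15 of 15 passed, with r from 0.41 to 0.91.

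**Figure D4:**
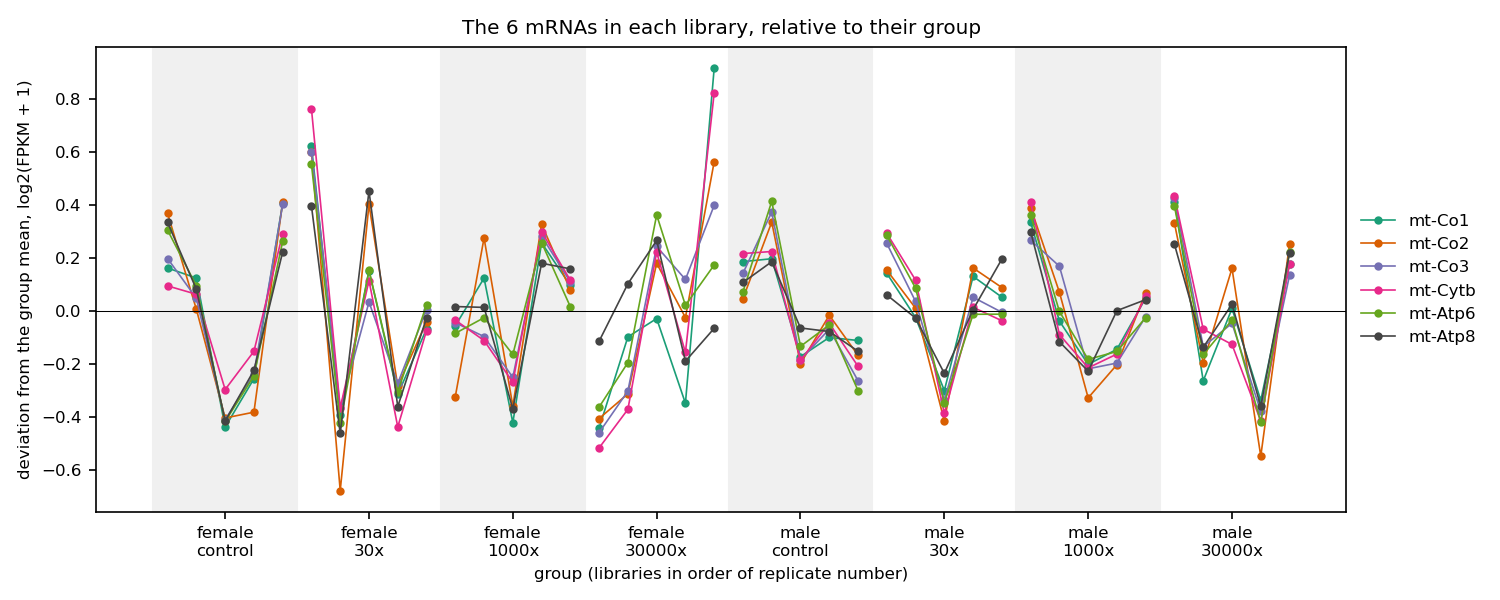
Deviation of each gene from its group mean, log2(FPKM + 1), in all 40 libraries ordered by group and replicate number, with a line per gene within a group. The 6 lines run together in most libraries, and part in female 30000x replicate 5, where mt-Co1 and mt-Cytb are high and mt-Atp8 lies below its group mean.

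The spread of the 6 genes between libraries of a group lay near the middle of all genes tested, which include genes of much lower level. Genes of like abundance were not compared separately. Their within-group SD was 0.25 (mt-Atp8) to 0.35 (mt-Co2) on the log2 scale, at percentiles 44.1 to 69.6 of all genes tested, whose median was 0.27. When genes that averaged 5 FPKM or more were ranked by their correlation with the mean deviation of the 6 genes over the 40 libraries, the nearest genes outside the set were ENSRNOG00000030644 (r = 0.89, 955 bp, mean 21828 FPKM) and ENSRNOG00000031033 (r = 0.87, 1039 bp, mean 17152 FPKM). Neither identifier was paired with a name in the files. Of 8745 such genes, 6 reached an r of 0.8, and the median r was 0.07. Each of the 6 mitochondrial genes had an r of 0.80 to 0.94 with the mean of the other 5.

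Ratios between the genes, which do not depend on the library scaling, also differed by sex. mt-Cytb made up 9.76% to 13.4% of the 6 genes' summed FPKM in females, with a median of 11.1%, against 11.3% to 13.8% in males, with a median of 12.9%. In 11 of 20 female libraries this share lay below that of every male library. mt-Co2 made up 13.9% to 21.1% in females (median 17.6%), against 13.8% to 17.1% in males (median 15.3%), and 11 of 20 female libraries exceeded every male library. The ratio of mt-Cytb to mt-Co3 was 0.508 to 0.855 in females, with a median of 0.596, against 0.613 to 0.810 in males, with a median of 0.731. The highest female ratio was that of female 30000x replicate 5, and the next was 0.637. mt-Atp6 held similar parts in both sexes, with a median of 24.5% in females and 24.9% in males. These compositions are descriptions without a test.

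Levels of the 6 genes moved with the number of genes detected in a library. Both are read from the same scaled values of a library, so they are not independent. The relation of other genes with that number is not given here. On deviations from the group means, each of the 6 correlated negatively with the number of genes at 1 FPKM or more, which was 11905 to 12711 in females (median 12451.5) and 12204 to 12603 in males (median 12410.5). In females the Pearson r was -0.79 for mt-Co1 (Spearman's rho -0.77, permutation p = 0.00084 and 0.00069, adjusted p = 0.0050 and 0.0055 over 24 relations, 20 libraries), and -0.72 without the 2 libraries farthest from the median. For mt-Atp8 in females the r was -0.47 (rho -0.51), which did not pass (adjusted permutation p = 0.12 and 0.083). In males the r ran from -0.65 (mt-Cytb) to -0.77 (mt-Co1), with 6 of 6 past the threshold. In 0 of 12 relations with the number of recovered reads was the threshold passed, with adjusted permutation p of at least 0.80 for Pearson's r and 0.39 for Spearman's rho. The part of detected gene number, RNA quality or dissection in the differences between the sexes was not tested.

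**Figure D5:**
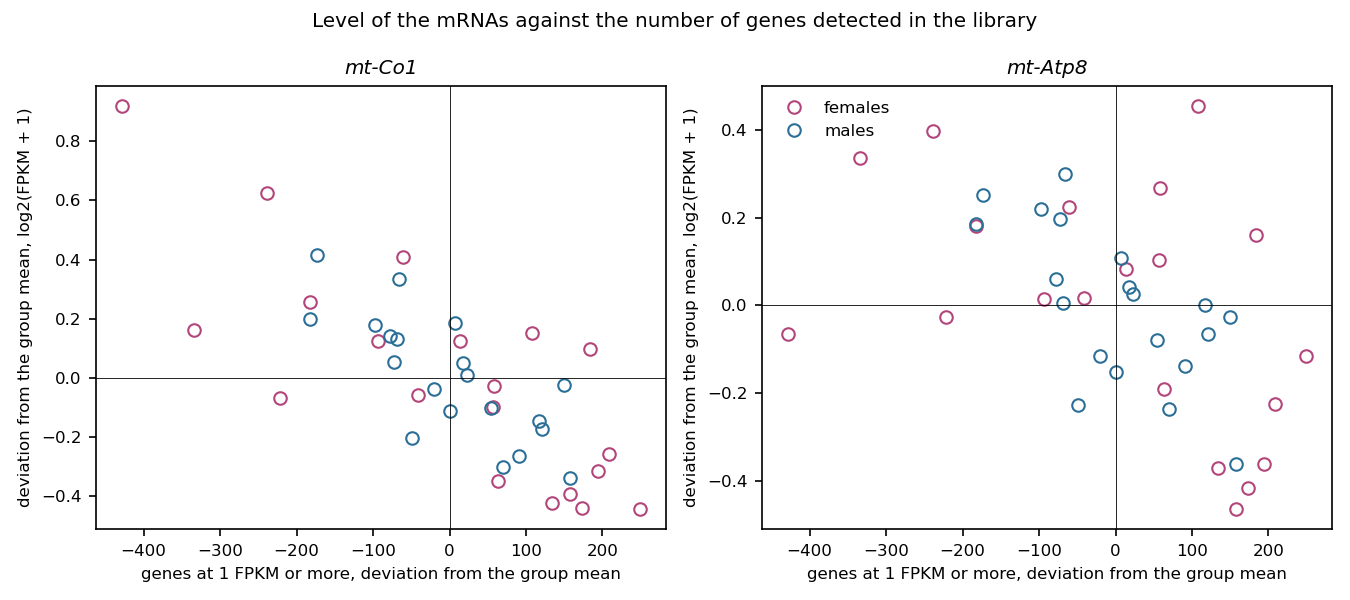
Deviation from the group mean of mt-Co1 and mt-Atp8, log2(FPKM + 1), against the deviation from the group mean of the number of genes at 1 FPKM or more, with a circle per library in each sex. Libraries with fewer genes detected have more mt-Co1 in both sexes (r = -0.79 in females and -0.77 in males), and the relation is looser for mt-Atp8 in females (r = -0.47).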

How the data were processed

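Per the submitters' processing notes, HISAT2 2.0.5 and featureCounts 1.5.0-p3 were used. For build, annotation and strand setting the sources used here give nothing. FPKM were deposited by the authors, 1 table per library, for 32545 genes, of which 9505 were at 0 throughout. Over the 20717 genes seen in 3 or more libraries, 100.000% of 680244 nonzero values were whole multiples of 1 read (tolerance 0.05 reads). From these, reads, gene lengths and library scales were recovered, and the scales equalled median-of-ratios size factors (0.579 to 1.54) over 12993 genes. limma 3.58.1 (R 4.3.3, trended prior, two-sided) was run on log2(FPKM + 1) for genes that reached 1 FPKM in 5 or more of the fitted libraries, with Benjamini-Hochberg adjustment over all genes tested and a threshold of 0.05. Doses were tested within a sex (20 libraries), and sexes and interactions over 40 libraries; differences are on the log2(FPKM + 1) scale. No pair of libraries within a group agreed within sampling noise (chi-square per degree of freedom 17.1 to 157 over 80 pairs). The labels give no pairing of libraries by replicate number, and the main tests used none. Alternatives were a pseudocount of 0.1, other filters, scaling to the FPKM sum, quantile normalization, library weights, a replicate block, the compared groups alone, voom on recovered reads and each library left out. The tests were run on simulated data first. Other steps ran in Python 3.11.15 with scipy 1.17.1, pandas 2.3.3, numpy 2.4.6 and, for plots, matplotlib 3.10.9.

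All 6 genes are named in every comparison. Genes of like pattern were limited to the 2 of highest correlation with a mean of at least 5 FPKM, because the gene name table (47357 rows) held 0 of the identifiers. For the same reason the lists of cell type markers were not read. The genes, lists and tests were chosen with earlier results of these data known. Relations with library measures, the ratio to all other genes and the correlations without female 30000x replicate 5 were added after seeing the data.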

Additional observations from a re-analysis of the deposited data

Results flagged for a closer look

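Among the groups of 5 values examined (the FPKM of each gene, its part of the 6 genes' summed FPKM, and their summed share of the library), 5 held a value far from the other 4, and chance alone gives about 1 group in 20, which for this number of groups would be 5.2. mt-Co1 was at 134159 FPKM in female 30000x replicate 5, while the other 4 libraries of the group lay between 52224 and 69587 FPKM. In the same library mt-Atp6 made up 16.6% of the 6 genes' summed FPKM, against 22.9% to 25.4% in the others. In female 1000x replicate 2, mt-Co3 made up 17.4% of the sum, against 19.3% to 19.9%, and mt-Cytb made up 10.2%, against 11.5% to 11.9%. mt-Atp8 made up 0.400% of the sum in male 30000x replicate 1, against 0.451% to 0.457% in the others.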

How the results depend on the processing

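The count of genes called did not move with a pseudocount of 0.1, and in the dose comparisons, dose trends and interactions it was 0 of 6 under every setting run. For female control against male control it was 1 in place of 0 with library weights, voom, quantile normalization or a floor of 5 on the mean FPKM, and 2 with scaling to the FPKM sum. For the sexes at 30x, the count of 5 became 1 without a filter, 1 with quantile normalization and 0 in the compared groups alone. At 1000x the count of 4 became 1 in each of these 3 settings, and at 30000x the count of 6 became 1, 0 and 0. The counts also rose, to 6 at 30x with voom, with a floor of 5 on the mean FPKM and with the replicate block, and to 6 at 1000x with library weights. Over the 4 dose groups 6 became 3 without a filter and 1 with quantile normalization. The compared groups alone use fewer libraries to estimate the spread, and quantile normalization gives each gene the average value of its rank. Why the counts moved was not tested for any of these settings. Calls over all genes moved too. Higher in females at 30x were 1.85% of all genes, 0.725% without a filter and 1.25% in the compared groups alone. For library weights, a floor on the mean, the replicate block and single libraries left out, no share of all genes is given. Nor is one given for quantile normalization within a dose or for the fit over the 4 groups without a filter. Those counts are thus not set against a background. The log2 ratio of the summed share, female over male, was 0.705 by reads and 0.754 against all other genes at 30x (0.541 by FPKM sum), 0.664 at 1000x against all other genes (0.496) and 0.831 at 30000x (0.603). With the replicate block no other count moved. Over all genes tested, the median correlation of same-numbered libraries was 0.003 over 140 pairs, against 0.000 for libraries of other numbers. Of these 140 pairs, 28 had a correlation over 0.1, up to 0.305. A median over all pairs cannot show whether some numbers link libraries, and the labels do not say.

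With 1 library left out, the count between the sexes ran from 0 to 1 in controls, where mt-Co3 was called without male control replicate 2, from 4 to 6 at 30x, from 1 to 4 at 1000x and from 5 to 6 at 30000x. At 1000x it was 1 without male replicate 3, and 2 without male replicate 4 or 5 or female replicate 2, 4 or 5. At 30x mt-Co1 was lost without male replicate 2 or female replicate 1 (limma adjusted p 0.057 and 0.087), and mt-Cytb was called without female replicate 2 or 4. At 30000x mt-Atp8 was lost without male replicate 4 (limma adjusted p 0.078).

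Signs of log2 differences turned mostly with quantile normalization. Female minus male was -0.17 (mt-Cytb) in controls, -0.041 (mt-Co3) at 30x, -0.045 (mt-Co1), -0.041 (mt-Co3) and -0.11 (mt-Cytb) at 1000x, -0.045 (mt-Co1), -0.037 (mt-Atp6) and -0.12 (mt-Co3) at 30000x, and -0.022, -0.051 and -0.056 (mt-Co1, mt-Co3, mt-Cytb) over the 4 groups. Dosed minus control was -0.040 (mt-Co3) in females at 30x, -0.045 (mt-Co1), -0.040 (mt-Co3), -0.039 (mt-Cytb) and -0.0046 (mt-Atp8) at 1000x, -0.045 (mt-Co1), -0.12 (mt-Co3), -0.019 (mt-Atp6) and -0.075 (mt-Atp8) at 30000x, and 0.074 (mt-Atp8) in males at 30000x. The female trend was -0.018 (mt-Co1), -0.036 (mt-Co3) and -0.0013 (mt-Atp6). The interaction was -0.041 (mt-Co3) at 30x, -0.045 (mt-Co1) and -0.041 (mt-Co3) at 1000x, and -0.045 (mt-Co1), -0.037 (mt-Atp6), -0.12 (mt-Co3) and -0.13 (mt-Atp8) at 30000x. With scaling to the FPKM sum, mt-Atp8 was -0.052 and -0.17 in females at 1000x and 30000x, -0.062 and -0.21 in the interaction at 30x and 30000x, and 0.047 in males at 30000x, while mt-Co3 and mt-Atp6 were 0.022 and 0.023 in males at 30x. With library weights mt-Co3 and mt-Atp6 were 0.043 and 0.047 there, and the female trend of mt-Atp8 was 0.014. Leaving out 1 library turned the sign of values near 0. In males at 30x the ranges were -0.11 to 0.0096 (mt-Co1), -0.028 to 0.13 (mt-Co2), -0.085 to 0.075 (mt-Co3), -0.12 to 0.047 (mt-Cytb) and -0.093 to 0.086 (mt-Atp6). For mt-Atp8 they were -0.021 to 0.18 and -0.0042 to 0.18 in females at 1000x and 30000x, -0.046 to 0.011 for the female trend, and -0.14 to 0.018 in males at 30000x. Of the 6 genes, mt-Atp8 had the fewest reads, 1566 to 4510 per library, and the smallest within-group SD, 0.25 on the log2 scale.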

Other observations

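The balance between mt-Co1 and mt-Atp6 was narrow in males, with a ratio of FPKM from 1.01 to 1.34 and a median of 1.18. In females the ratio ran from 0.914 (1000x replicate 3) to 2.17 (30000x replicate 5), with a median of 1.12, and the second highest female value was 1.39. The ratio of mt-Atp8 to mt-Atp6, whose reading frames overlap, was 0.0124 to 0.0193 in females and 0.0139 to 0.0207 in males, and its lowest value was again that of female 30000x replicate 5. These ratios were read after the values were seen and are given without a test.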
